A study of Mus musculus with 21 samples.

Results

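The transgelins and calponins are 6 paralogous genes, Tagln, Tagln2, Tagln3, Cnn1, Cnn2 and Cnn3, that encode actin-binding proteins with a calponin homology domain. They were taken by symbol from the 24509 genes in the deposited expression tables. All 6 were listed at both stages, and all 6 passed the filter on low values. The study profiled polyA RNA of embryonic CD1 mouse hearts floxed or deleted for Chd4, the gene for an ATPase of the NuRD chromatin remodelling complex. Null hearts carried Chd4 Δflox on both alleles, and flox hearts carried the intact floxed allele on both. There were 5 null and 5 flox libraries at embryonic day 9.5 (E9.5), and 3 null and 3 flox libraries at E10.5. For CHD4 itself, 3 lists of peaks from chromatin immunoprecipitation of wild-type CD1 hearts at E10.0 were deposited, from 2 biological samples, so they are not 3 independent replicates. The recombinase that deleted the floxed allele, and whether flox embryos carried it, are not given in the sources used here.

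Calponins bind actin filaments through a calponin homology domain and calponin-like repeats, and the smooth muscle form slows the actomyosin ATPase. Transgelins share that domain, carry 1 calponin-like repeat, and bundle or crosslink actin. Tagln (SM22α) and Cnn1 are classical markers of smooth muscle that the early mouse heart tube also expresses, and Tagln is a textbook target of serum response factor (SRF) with its cofactor myocardin. Tagln2, Cnn2 and Cnn3 are expressed widely, in many non-muscle cells too, while Tagln3 (NP25) is known mainly from neurons.

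The libraries held 17.1 to 23.5 M reads at E9.5 and 17.3 to 18.9 M reads at E10.5 (M, 1000000). Levels are in RPKM (reads scaled by gene length and library depth), so that they can be set between genes of different length. Chd4 averaged 45.7 ± 3.08 RPKM in null hearts and 92.4 ± 1.33 RPKM in flox hearts at E9.5 (SD, n = 5 each). At E10.5 it averaged 52.7 ± 4.61 RPKM in null hearts and 77.6 ± 12.3 RPKM in flox hearts (SD, n = 3 each). No null library reached any flox library at either stage, although the Chd4 difference passed the limma test at E9.5 only (adjusted p = 1.69e-06, against 0.116 at E10.5). Cardiomyocyte markers were abundant in every library, but at E9.5 they summed to 11536 to 14399 RPKM in null and 14267 to 16899 RPKM in flox hearts. Of these 10 markers 3 fell there, Nkx2-5, Myh6 and Actc1, and none rose (median log2 difference −0.22). Erythroid markers summed to 27810 to 75122 RPKM in null hearts and 10986 to 28027 RPKM in flox hearts at E9.5, and 10 of 11 tested erythroid genes rose. At E10.5 flox library 2 stood apart, with the lowest cardiomyocyte sum (6475 RPKM, against 11191 and 12330 RPKM in the other flox libraries). Its 6 foregut and liver markers summed to 177 RPKM, against 2.81 and 4.54 RPKM in the other flox libraries and 21.9, 1363 and 931 RPKM in null libraries 1 to 3. In bulk hearts, a change in the number of cells of a type and a change in RNA per cell cannot be told apart.

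Abundant paralogs, 5 in number, and 1 scarce one made up the family. Tagln was the highest at both stages and in both genotypes, among the top 0.257% of the tested genes in null hearts and 0.264% in flox hearts at E9.5. Tagln2, Cnn1, Cnn2 and Cnn3 lay between 67.7 and 394 RPKM in every library. Tagln3 was far below them, at 1.25 to 13.9 RPKM. The order below Tagln differed between groups. In null hearts at E9.5, Cnn2 and Tagln2 came next and overlapped, followed by Cnn1, Cnn3 and Tagln3 with no overlap between neighbours. In flox hearts at E9.5, Cnn2 stood clear above Tagln2 and Cnn1, which overlapped. In null hearts at E10.5, Tagln2 stood above Cnn2 without overlap, and Cnn1 and Cnn3 overlapped. In flox hearts at E10.5, Cnn2 and Tagln2 overlapped, and Cnn3 lay above Cnn1.

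**Figure D1:**
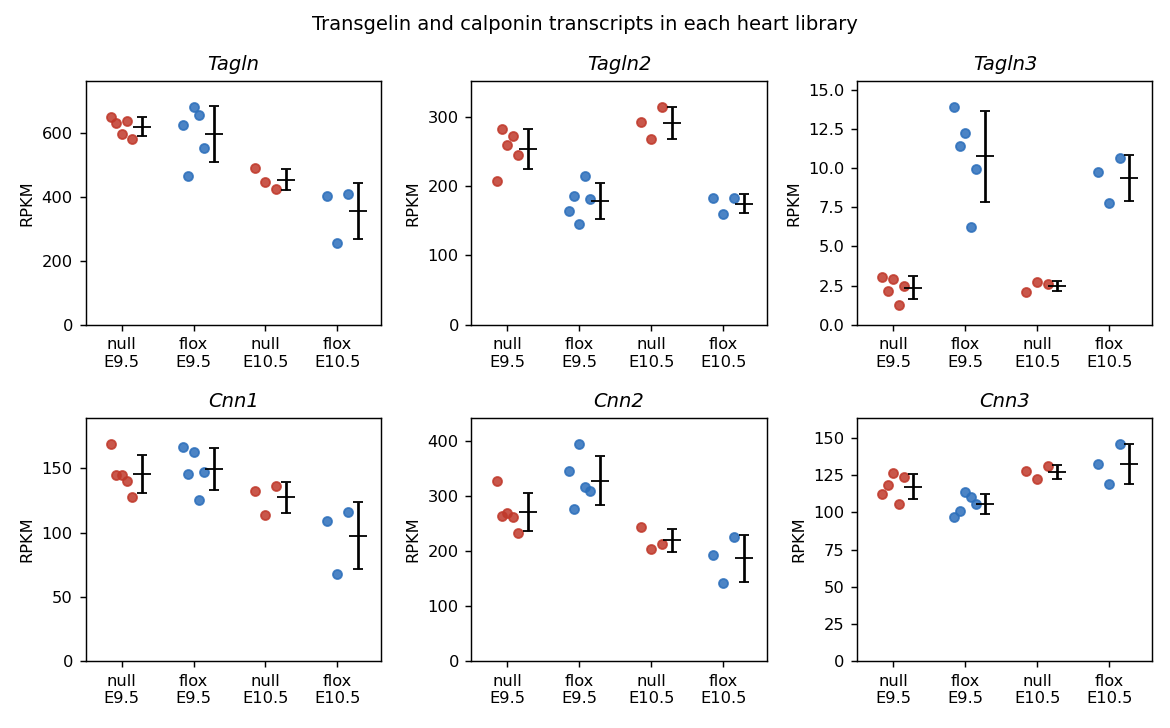
RPKM of each transgelin and calponin in every library, null beside flox at E9.5 (5 libraries each) and E10.5 (3 libraries each), with the group mean and SD. Tagln3 separates completely by genotype at both stages, at 1.25 to 3.07 RPKM in null against 6.25 to 13.9 RPKM in flox libraries.

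Between genotypes, Tagln2 rose, Tagln3 fell and 4 paralogs did not pass the test at E9.5 (limma, null minus flox on log2(RPKM + 0.5), Benjamini-Hochberg adjusted p below 0.05). Over all genes tested at E9.5, 17.2% were called, 6.87% as higher and 10.3% as lower. At E10.5 Tagln3 fell and 5 paralogs did not pass, where 2.07% of genes were called, 1.77% as higher and 0.305% as lower. The median log2 difference of the 6 genes was 0.01 at E9.5 and 0.32 at E10.5, beside −0.04 and −0.03 over all genes tested. Differences in both directions were thus called within the family at E9.5.

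Tagln3, the transgelin known from neurons, had the largest difference of the 6 at both stages. At E9.5 it measured 3.07, 2.13, 2.93, 1.25 and 2.47 RPKM in null libraries 1 to 5, against 13.9, 11.4, 12.3, 6.25 and 9.95 RPKM in flox libraries 1 to 5. These levels stood for 27 to 70 reads in null and 147 to 346 reads in flox libraries. The groups did not overlap, as was so for 14.1% of tested genes at this stage (5.5% higher in null, 8.57% lower), and library 4 was the lowest in both groups. The mean was 2.37 ± 0.729 RPKM in null hearts and 10.8 ± 2.90 RPKM in flox hearts (SD, n = 5 each). The log2 difference was −1.97 ± 0.231 (SE; limma, adjusted p = 0.000401), the third largest of the 1405 falls. Because Tagln3 is low, the pseudocount of 0.5 shrinks this value, which was −2.15 with a pseudocount of 0.1.

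At E10.5 Tagln3 measured 2.11, 2.74 and 2.61 RPKM in null libraries 1 to 3, against 9.74, 7.76 and 10.6 RPKM in flox libraries 1 to 3. The read counts were 44 to 60 in null and 162 to 214 in flox libraries, again with no overlap. Groups of 3 did not overlap for 31.3% of the genes tested at E10.5, and 17.4% were lower in null without overlap. Its log2 difference here was −1.72 ± 0.182 (SE; limma, adjusted p = 0.00451), the ninth largest of 43 falls, and −1.85 without flox library 2 (adjusted p = 0.0131). The difference at E10.5 minus that at E9.5 was 0.25 (limma interaction, adjusted p = 0.672), so no change with stage was detected. By level, Tagln3 lay within the top 79.8% of tested genes in null hearts and the top 44.9% in flox hearts at E9.5.

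The other neuronal genes went both ways. Of 20 neuronal markers, 12 passed the filter at E9.5, where 2 rose, 1 fell and 9 did not pass the test, beside 6.87% of all genes called higher and 10.3% called lower (median log2 difference 0.18, against −0.04 over all genes). Prph, the intermediate filament peripherin, rose by 1.61 on the log2 scale (adjusted p = 5.85e-05). Gng3, a neuronal G protein subunit, rose by 0.74 (adjusted p = 0.000149). Nefl, the neurofilament light chain, fell by 0.84 on the log2 scale (adjusted p = 0.00231). Nefl measured 1.68 ± 0.319 RPKM in null hearts and 3.41 ± 0.606 RPKM in flox hearts (SD, n = 5 each). Tubb3 and Stmn2, pan-neuronal cytoskeletal markers, did not pass, with Tubb3 at 10.1 ± 3.71 RPKM in null and 8.29 ± 3.44 RPKM in flox hearts. At E10.5, 2 of 15 tested markers rose, again Prph (1.56, adjusted p = 0.0284) and Gng3 (0.96, adjusted p = 0.0399), and none was called lower, beside 1.77% of all genes called higher (list median −0.06). Nefl missed the threshold there with a log2 difference of −0.98 (adjusted p = 0.0526), at 1.46 ± 0.387 RPKM in null and 3.31 ± 0.108 RPKM in flox hearts (SD, n = 3 each). The summed neuronal list was 60.5 to 74.2 RPKM in null and 54.0 to 64.8 RPKM in flox hearts at E9.5, and 53.4 to 87.3 RPKM in null and 50.3 to 74.5 RPKM in flox hearts at E10.5. Up to 3 of its 20 genes were at 0 in a library. With the erythroid level as a covariate, the Tagln3 difference at E9.5 was −1.58 and lost its call (limma, adjusted p = 0.145, unadjusted p = 0.00223). The SE of that difference was 0.388, against 0.231 without the covariate. At E10.5 the call held with the erythroid (−1.62, adjusted p = 0.0313) and neuronal (−1.73, adjusted p = 0.00722) levels as covariates.

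Tagln2, the widely expressed transgelin, moved the other way. At E9.5 it measured 208, 282, 259, 273 and 246 RPKM in null libraries 1 to 5, against 165, 186, 146, 215 and 182 RPKM in flox libraries 1 to 5. Null library 1 lay below flox library 4, and the other 4 null libraries lay above every flox library. The mean was 254 ± 29.1 RPKM in null hearts and 179 ± 25.7 RPKM in flox hearts (SD, n = 5 each). Its rise was 0.51 ± 0.110 (SE; limma, adjusted p = 0.0102), at place 544 of 937 rises. At E10.5 the levels were 293, 268 and 314 RPKM in null libraries 1 to 3, against 183, 159 and 183 RPKM in flox libraries 1 to 3, with no overlap. At that stage 13.9% of tested genes were higher in null hearts without overlap. That difference of 0.73 ± 0.155 missed the threshold (limma, adjusted p = 0.0555, unadjusted p = 0.00129). It passed on quantile-normalized values (0.64, adjusted p = 0.0300) and by voom on reads (0.79, adjusted p = 0.0330). Without flox library 2 it was 0.67 (adjusted p = 0.156).

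Tagln2 was also fitted with marker levels as covariates. With the erythroid level its difference at E9.5 was 0.53 and lost its call (limma, adjusted p = 0.386). The SE of that difference was 0.197, against 0.110 without the covariate. With the neuronal level, a covariate added after seeing the data, the difference was 0.25 and was not called (adjusted p = 0.492). The call held with the level of epicardial markers (0.40, adjusted p = 0.0196), which summed to 150 to 451 RPKM in null and 81.3 to 331 RPKM in flox hearts at E9.5. None of the 9 tested epicardial genes passed there. At E10.5 the epicardial sums were 327 to 369 RPKM in null and 241 to 280 RPKM in flox hearts, and 1 of 10 genes rose, the keratin gene Krt19. Krt19 averaged 121 ± 48.1 RPKM in null and 23.6 ± 5.82 RPKM in flox hearts (SD, n = 3 each). The other 9 summed to 194 to 243 RPKM in null and 225 to 253 RPKM in flox hearts, and the list's median log2 difference was −0.04. Across the 16 libraries, after the mean of each stage and genotype was removed, Tagln2 had a Pearson r of 0.66 with both the epicardial and the cushion mesenchyme lists, and of −0.59 with Tagln3. Its r was −0.07 with both the erythroid and the neuronal lists. The part of the cushion mesenchyme level in the Tagln2 difference was not tested.

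The promoters of the called pair differed in CHD4 peaks, and their bases are shown for that reason. Each line gives the 250 bases before the start site from RefSeq (GRCm38.p6, the assembly of mm10), 5′ to 3′ on the gene's strand, with bases under a peak in all 3 CHD4 lists in capitals. The Tagln2 stretch is chr1:172499996-172500245 on the plus strand, and that of Tagln3 is chr16:45724532-45724781 on the minus strand.
Tagln2: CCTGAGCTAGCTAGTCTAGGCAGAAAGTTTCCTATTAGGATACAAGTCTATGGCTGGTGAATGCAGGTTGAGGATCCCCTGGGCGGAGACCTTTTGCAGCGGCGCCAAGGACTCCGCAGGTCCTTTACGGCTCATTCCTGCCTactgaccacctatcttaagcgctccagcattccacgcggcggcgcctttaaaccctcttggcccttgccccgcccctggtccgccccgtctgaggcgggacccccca
Tagln3: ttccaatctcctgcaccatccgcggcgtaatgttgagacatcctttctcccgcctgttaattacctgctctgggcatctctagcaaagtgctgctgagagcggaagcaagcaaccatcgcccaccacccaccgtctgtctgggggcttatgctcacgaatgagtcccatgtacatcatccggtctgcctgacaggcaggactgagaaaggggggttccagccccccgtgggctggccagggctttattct
In Tagln2, the 143 bases farthest from the start lay under a peak in every list, and the rest did not. In Tagln3, no base did. A window of 300 bases, which adds 50 after the start, held a peak in all 3 lists for 47.8% of 10152 tested genes with a RefSeq promoter. The contrast was not particular to the called pair. Among paralogs not called, Cnn3 likewise had no base of this window under a peak in every list, while Cnn1 had 144 and Cnn2 66. The GC box GGGCGG or its reverse complement CCGCCC occurred 3 times in the Tagln2 window and not in that of Tagln3, while 35.7% of 32851 windows held it. The windows of Cnn2 and Cnn3 held it too, and that of Cnn1 did not. GC content was 61.3% in the Tagln2 window and 57.3% in that of Tagln3, against a median of 52.7%.

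The pair of Tagln2 and Tagln3 can be read as a ratio within each library, which cancels library-wide scaling. The log2 ratio of Tagln3 to Tagln2 was −6.51 ± 0.541 in null hearts and −4.03 ± 0.605 in flox hearts at E9.5 (SD, n = 5 each). The difference was −2.48, with no overlap (exact permutation test, two-sided p = 0.00794, the smallest that 5 against 5 allows, adjusted p = 0.0635 over 8 ratio tests). At E10.5 it was −6.62 ± 0.226 in null hearts and −4.16 ± 0.116 in flox hearts (SD, n = 3 each), a difference of −2.46, again with no overlap. The exact permutation p of 0.1 is the smallest that 3 against 3 allows (adjusted p = 0.133). Without null library 1 at E9.5, the adjusted p was 0.0317 and the difference −2.72. Leaving out a null library does not lower the smallest possible p, so the lower adjusted p came through the other ratio tests. Tagln3 made up 0.272% ± 0.0900 of the summed transgelin level in null hearts and 1.39% ± 0.416 in flox hearts at E9.5 (SD, n = 5 each). At E10.5 the shares were 0.334% ± 0.0590 in null and 1.75% ± 0.104 in flox hearts (SD, n = 3 each).

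**Figure D2:**
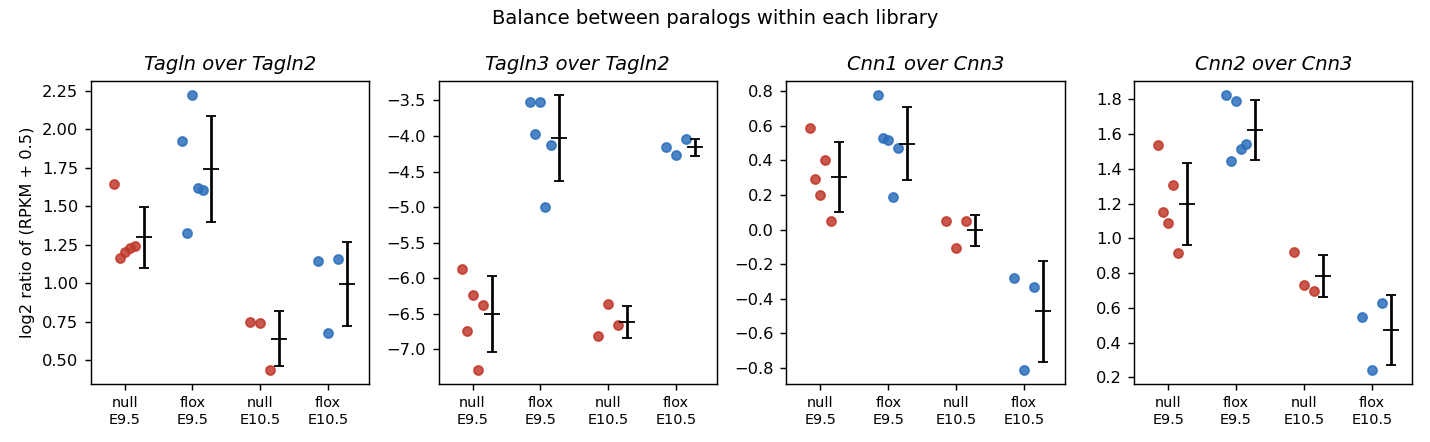
Log2 ratios between paralogs in every library, null beside flox at both stages, with group means and SD. The Tagln3 to Tagln2 ratio separates the genotypes at both stages by about the same difference (−2.48 at E9.5 and −2.46 at E10.5). The null minus flox differences of Cnn1 to Cnn3 and Cnn2 to Cnn3 are negative at E9.5 and positive at E10.5. Neither passed at E9.5, and at E10.5 no ratio could pass, since 3 against 3 allows no exact permutation p below 0.1.

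Tagln, the smooth muscle transgelin, did not differ detectably at E9.5. It measured 652, 634, 597, 640 and 583 RPKM in null libraries 1 to 5, against 626, 468, 682, 658 and 554 RPKM in flox libraries 1 to 5. The null libraries lay within the flox range. The log2 difference was 0.07 ± 0.0985 (SE; limma, adjusted p = 0.676), with a 95% interval of −0.15 to 0.28. At E10.5 it measured 491, 447 and 425 RPKM in null libraries 1 to 3, against 404, 255 and 409 RPKM in flox libraries 1 to 3. The groups did not overlap, as was so for 31.3% of tested genes at this stage (13.9% higher in null). The Tagln difference of 0.38 ± 0.222 did not pass (SE; limma, adjusted p = 0.328). Without flox library 2, the one low in cardiomyocyte genes, it was 0.16 (limma, adjusted p = 0.657). The part of that library's makeup in the value was not tested.

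Tagln shared its ground with another gene. Tagln lies at chr9:45929628-45936058 (mm10), and its span overlaps the neighbouring Pcsk7, a proprotein convertase gene, by 2480 bp. Neither labels nor file headers state the strand setting of the authors' counting, so reads in the overlap cannot be assigned. Pcsk7 averaged 7.74 RPKM over all libraries at E9.5 and 6.06 RPKM at E10.5, far below Tagln. The summed transgelins measured 877 ± 37.9 RPKM in null and 787 ± 84.0 RPKM in flox hearts at E9.5 (SD, n = 5 each), and 749 ± 34.9 RPKM in null and 541 ± 102 RPKM in flox hearts at E10.5 (SD, n = 3 each). As a share of the summed transgelins, Tagln made up 70.8% in null and 75.7% in flox hearts at E9.5, and 60.7% in null and 65.3% in flox hearts at E10.5. The log2 ratio of Tagln to Tagln2 at E9.5 was 1.30 ± 0.197 in null and 1.74 ± 0.344 in flox hearts (SD, n = 5 each; exact permutation test, two-sided p = 0.0317, adjusted p = 0.0847).

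Among the calponins, none passed the limma test at either stage, while Cnn2 and Cnn3 had an unadjusted p under 0.05 at E9.5. Cnn1, the smooth muscle calponin, measured 169, 145, 145, 140 and 128 RPKM in null libraries 1 to 5, against 167, 145, 163, 125 and 147 RPKM in flox libraries 1 to 5 at E9.5. The groups lay over each other, with a log2 difference of −0.04 ± 0.0903 (SE; limma, adjusted p = 0.796). At E10.5 Cnn1 measured 132, 113 and 136 RPKM in null libraries 1 to 3, against 109, 67.7 and 116 RPKM in flox libraries 1 to 3. Flox library 2 was the low one, and flox library 3 lay above null library 2. The log2 difference was 0.42 ± 0.220 (SE; limma, adjusted p = 0.290), and 0.17 without flox library 2 (adjusted p = 0.609).

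Cnn2 is the widespread calponin, second to Tagln in mean level in flox hearts. At E9.5 it measured 326, 264, 269, 263 and 233 RPKM in null libraries 1 to 5, against 344, 275, 394, 316 and 309 RPKM in flox libraries 1 to 5. Null library 1 was the high one of its group, and the other 4 lay below every flox library. In log2 it differed by −0.27 ± 0.106 (SE; limma, adjusted p = 0.103, unadjusted p = 0.0266). It passed without null library 1 (−0.34, adjusted p = 0.0348), but the 10 omissions of 1 library ran from −0.34 to −0.20 (limma, adjusted p up to 0.221). Under the 12 other alternatives the Cnn2 difference at E9.5 ran from −0.35 to −0.04 (limma, adjusted p 0.0401 to 0.934). At E10.5 Cnn2 measured 243, 203 and 213 RPKM in null libraries 1 to 3, against 193, 141 and 226 RPKM in flox libraries 1 to 3, and the groups overlapped. That difference was 0.25 ± 0.202 (SE; limma, adjusted p = 0.472), and 0.07 without flox library 2 (adjusted p = 0.867). RefSeq lists a pseudogene, Cnn2-ps, on another chromosome, so reads that match both could have been split.

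Cnn3, the acidic calponin, had overlapping groups at both stages. At E9.5 it measured 112, 118, 126, 106 and 123 RPKM in null libraries 1 to 5, against 96.7, 101, 114, 110 and 106 RPKM in flox libraries 1 to 5. It differed by a log2 value of 0.15 ± 0.0639 (SE; limma, adjusted p = 0.127). At E10.5 it measured 128, 122 and 131 RPKM in null libraries 1 to 3, against 132, 119 and 146 RPKM in flox libraries 1 to 3, a difference of −0.05 ± 0.145 (SE; limma, adjusted p = 0.846). The authors' deposited table, which gives flox over null and so runs the other way, lists Cnn3 at E9.5 with a log2 fold change of −0.18 (adjusted p = 0.0293). In the authors' deposited table Tagln2 stands at −0.51 at E9.5 and −0.73 at E10.5, and Tagln3 at 1.67 and 1.62, all 4 with adjusted p of at most 0.000146.

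**Figure D3:**
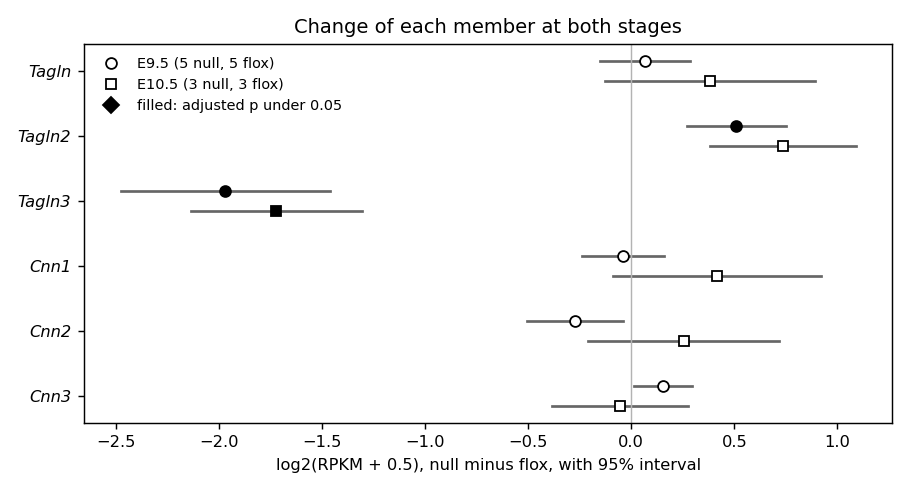
Log2 difference, null minus flox, of the 6 paralogs at E9.5 and E10.5, with 95% intervals from limma. Filled points passed the test. Tagln3 lies near −1.97 and −1.72, Tagln2 at 0.51 and 0.73, and the intervals of Tagln, Cnn1 and Cnn2 at E10.5 all include 0.

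Set between stages, the point estimates of the calponins had opposite signs, although none passed the test, and those of Cnn1 at E9.5 and Cnn3 at E10.5 turned sign under some alternatives, with median scaling and voom for Cnn1 and voom for Cnn3 among them. For Cnn2 they were −0.27 at E9.5 and 0.25 at E10.5, and the later difference minus the earlier one was 0.53 ± 0.209 on the log2 scale (SE; limma interaction, unadjusted p = 0.0232, adjusted p = 0.129). For Cnn1 it was 0.46 (unadjusted p = 0.0494, adjusted p = 0.190), and for Tagln 0.31 (adjusted p = 0.361). No paralog was called in the interaction, where 3.82% of 13886 tested genes were. The stages come from separate tables, with RPKM computed library by library, and stage cannot be told apart from RNA input, which was 200 ng for E9.5 hearts and 300 ng for the later ones. The log2 ratio of Cnn2 to Cnn3 ran from 0.91 to 1.54 in null and from 1.45 to 1.83 in flox hearts at E9.5 (n = 5 each; exact permutation test, two-sided p = 0.0238, adjusted p = 0.0847). At E10.5 it was 0.78 ± 0.121 in null and 0.47 ± 0.204 in flox hearts (SD, n = 3 each), with no overlap and an exact permutation p of 0.1. Without flox library 2 that difference was 0.19 (exact permutation p = 0.2), against 0.31 with it. The Cnn1 to Cnn3 ratio at E10.5 likewise did not overlap, at 0.00 ± 0.0897 in null and −0.47 ± 0.294 in flox hearts (SD, n = 3 each; exact permutation p = 0.1), and without flox library 2 its difference was 0.30, against 0.47 with it. Summed, the calponins measured 533 ± 46.4 RPKM in null and 582 ± 58.2 RPKM in flox hearts at E9.5, and 474 ± 32.9 RPKM in null and 417 ± 81.2 RPKM in flox hearts at E10.5 (SD).

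The smooth muscle genes that Tagln and Cnn1 are usually listed with were called about as often as all genes at E9.5. Of 18 contractile genes, 2 rose, 2 fell and 14 did not pass, beside 6.87% of all tested genes called higher and 10.3% called lower (median log2 difference 0.03, against −0.04 over all genes). Myh11, the smooth muscle myosin heavy chain, averaged 9.08 ± 1.16 RPKM in null and 1.29 ± 0.467 RPKM in flox hearts (SD, n = 5 each), and rose by 2.45 (limma, adjusted p = 5.47e-06). Cald1, the actin regulator caldesmon, rose by 0.33 (adjusted p = 0.0185). Synpo2, a Z-disc and actin-bundling protein, fell by 0.82 (adjusted p = 0.00374), and Pdlim7, an actin-associated LIM protein, fell by 0.36 on the log2 scale (adjusted p = 0.0190). Acta2, smooth muscle actin, measured 1206 ± 159 RPKM in null and 1304 ± 182 RPKM in flox hearts and did not pass (adjusted p = 0.550).

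At E10.5, 3 of 18 contractile genes rose and none fell, beside 1.77% and 0.305% of all genes (median 0.30, against −0.03). Myh11 again rose, with 8.70 ± 0.145 RPKM in null and 0.935 ± 0.459 RPKM in flox hearts (SD, n = 3 each; log2 difference 2.74, adjusted p = 0.00306). Actg2, enteric smooth muscle actin, rose by 1.58 (adjusted p = 0.0388), and Tpm2, a tropomyosin, by 1.13 (adjusted p = 0.0251). Pdlim7 and Tpm2 were the contractile genes called in the interaction, at 0.91 (adjusted p = 0.0252) and 0.98 (adjusted p = 0.0230). The contractile list summed to 3022 to 3345 RPKM in null and 1809 to 2964 RPKM in flox hearts at E10.5, and flox library 2 was again the lowest.

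SRF, its cofactors and related factors fell in part at E9.5. Of 6 genes of the SRF and myocardin group, 4 fell, none rose and 2 did not pass, beside 10.3% of all genes called lower (median −0.26, against −0.04). In the same libraries 3 of 10 cardiomyocyte markers fell and 10 of 11 erythroid markers rose, and the part of either in these falls was not tested. Srf averaged 36.4 ± 5.92 RPKM in null and 49.1 ± 6.01 RPKM in flox hearts and fell by 0.43 on the log2 scale (limma, adjusted p = 0.0265). Myocd, the cofactor myocardin, averaged 24.2 ± 5.28 RPKM in null and 31.9 ± 3.00 RPKM in flox hearts (SD, n = 5 each; −0.41, adjusted p = 0.0481). Elk1, a ternary complex factor, fell by 0.26 (adjusted p = 0.0151), and Mkl2, a myocardin-related factor, fell by 0.23 on the log2 scale (adjusted p = 0.0456). None of the 6 was called at E10.5 by limma, nor had any an unadjusted p under 0.05 (median −0.28). Tagln and Cnn1 did not pass at either stage.

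**Figure D4:**
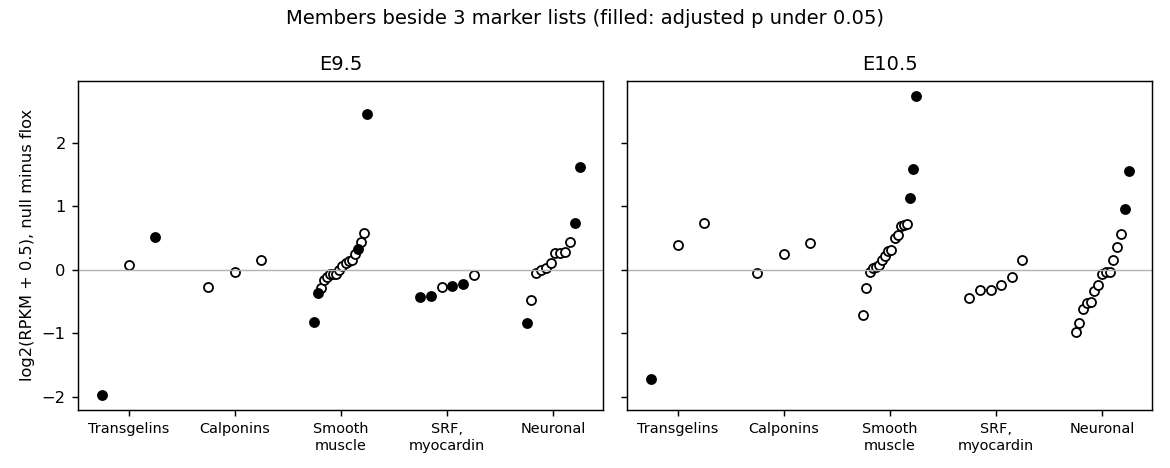
Log2 difference, null minus flox, of every tested gene of the smooth muscle contractile, SRF and myocardin, and neuronal lists beside the 6 paralogs, at E9.5 and E10.5. Filled points passed the test. Myh11 stands at 2.45 and 2.74 and Tagln3 at −1.97 and −1.72, while the medians of the 3 lists lie between −0.28 and 0.30.

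Within groups, Tagln, Cnn1 and Cnn2 varied together when all 16 libraries were taken. Flox library 2 of E10.5 was the lowest of its group in all 3, at 255, 67.7 and 141 RPKM. The other flox libraries there measured 404 and 409 RPKM of Tagln, and 109 and 116 RPKM of Cnn1. At E9.5, flox library 4 was the lowest of its group in Cnn1 (125 RPKM), yet its Tagln (658 RPKM) exceeded that of flox libraries 1, 2 and 5. How far the r values rest on flox library 2 of E10.5 was not tested. After the mean of each stage and genotype was removed, Tagln and Cnn2 had a Pearson r of 0.85 over the 16 libraries, Cnn1 and Cnn2 of 0.84, and Tagln and Cnn1 of 0.66. Tagln2 stood apart from all 3, with r of 0.05 with Tagln, −0.13 with Cnn1 and −0.26 with Cnn2. These points share depth and tissue makeup: the cardiomyocyte list had an r of 0.83 with Cnn1, 0.71 with Tagln and 0.69 with Cnn2, and the foregut and liver list one of −0.65, −0.71 and −0.73. Among 10003 genes compared, those most like Tagln were Acta1 (0.91), Slc30a6 (0.91) and Rnf113a1 (0.91). Those most like Cnn1 were Actc1 (0.92), Tgfb1i1 (0.90) and Acta2 (0.90), and those most like Cnn2 were Acta2 (0.91), Wbp11 (0.90) and Acta1 (0.88). Actc1 and Acta1 encode cardiac and skeletal muscle actin. Tagln2 was most like Pdia5 (0.92), Ppp1r1b (0.90) and Alyref2 (0.89). Tagln3 was most like Vps50 (0.92), Rbm19 (0.92) and Slc6a13 (0.91), and Cnn3 most like Fbxo36 (0.84), Bag3 (0.83) and Arfgap1 (0.81). All values are r and describe these libraries only.

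On mm10 the other genes lie at chr1:172500246-172507375 (Tagln2), chr16:45711230-45724531 (Tagln3), chr9:22099221-22109221 (Cnn1), chr10:79988600-79995400 (Cnn2) and chr3:121426541-121458205 (Cnn3). CHD4 peaks lay in or within 5 kb of 5 of the 6 genes in all 3 lists, where 80.1% of 13186 tested genes with RefSeq coordinates had such peaks. The exception was Tagln3, the paralog with the largest change. It had 1 peak in lists 1 and 2 and none in list 3, and both peaks lay at the far end of the gene, centred 13240 and 13147 bp after the start. Their scores, which are the authors' own, were 25 and 23, against list medians of 32 and 37. A window of 50 kb gave Tagln3 peaks in all 3 lists, as it did for 93.4% of genes.

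Cnn2 had the most peaks in or within 5 kb of the gene among the 6, with 12 in each list. Not all of them lay on Cnn2. In every list a peak lay within Tmem259, a membrane protein gene 4275 bp away, and others lay over Abca7, 1053 bp away. The strongest, centred at −3330, −3326 and −3406 bp from the Cnn2 start in lists 1 to 3, scored 635, 332 and 286. These scores were above 99.8%, 99.1% and 99.1% of the peaks of their lists. That peak stopped short of Cnn2 in every list and lay over the small nuclear RNA gene Gm26243. In list 1 it also overlapped the end of Tmem259, and in lists 2 and 3 it lay between Tmem259 and Cnn2. Which gene it acts on was not tested. Cnn2 also carried peaks over its start in every list. Its promoter is shown because it was the only 1 of 5 with a CArG box, the SRF-binding motif, which 1.63% of 32851 promoter windows held. The stretch is chr10:79988350-79988599 on the plus strand, marked as above.
Cnn2: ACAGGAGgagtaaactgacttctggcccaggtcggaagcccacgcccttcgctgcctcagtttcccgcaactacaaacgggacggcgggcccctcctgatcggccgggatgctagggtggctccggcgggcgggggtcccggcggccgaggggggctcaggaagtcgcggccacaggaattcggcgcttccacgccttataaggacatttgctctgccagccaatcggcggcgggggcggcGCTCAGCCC
The box reads CCTTATAAGG, from −56 to −47 counted from the start, and is in lower case because the peaks of list 3 lie to either side of it. Both other lists had a peak over it. No TATAAA or TTTATA was found in the 5 windows, and 13.6% of all windows held 1 of these. The promoter of Tagln was not analysed here.

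Each of the other abundant paralogs had a peak in every list. Tagln2 had 6, 4 and 3 peaks in lists 1 to 3, with the peak over its promoter window scoring 84, 109 and 37. Cnn1 had 3, 5 and 5 peaks, and 144 bases of its promoter window lay under a peak in every list. Cnn3 had 7, 1 and 5 peaks, and those shared by all lists lay inside the gene, centred 712 to 1240 bp after the start. Tagln had 3, 2 and 1 peaks, and the shared one lay just beyond the end of the gene with the higher coordinate, at chr9:45936679-45937308 in list 1, between Tagln and Sidt2. List 1 also had a peak across that end, at chr9:45935670-45936178 (score 84). The RefSeq promoters used held no entry for Tagln, so which of its ends is the start was not determined here. Lists 1 to 3 held 84271, 60749 and 50232 peaks, so a smaller count in list 3 is no change. Peak calls came from wild-type hearts only, and the expression differences of bound and unbound paralogs were not compared by a test.

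**Figure D5:**
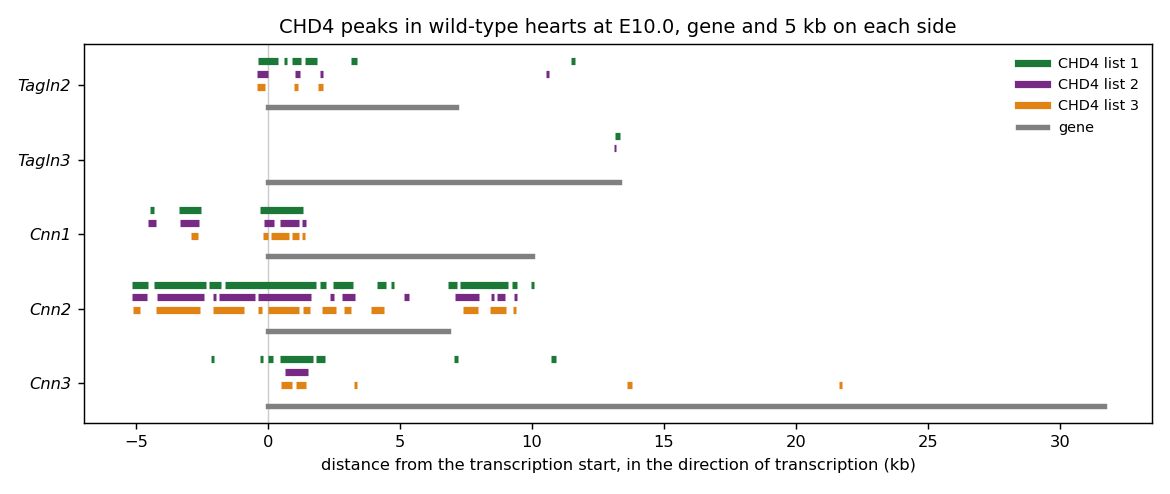
CHD4 peaks of the 3 lists around Tagln2, Tagln3, Cnn1, Cnn2 and Cnn3, drawn by distance from the start site in kb, with the gene as a bar. Cnn2 has 12 peaks per list in or within 5 kb of the gene, some of them on neighbouring genes, and Tagln3 has none near its start.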

How the data were processed

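The tools named, per the submitters' processing notes, were HTSeq (0.6.2), Bowtie (1.2.0) and DESeq2 (1.6.3) beside MACS2, SAMtools (1.6) and bedtools (2.25.0), with mm10. Their roles and order are not stated there. The authors deposited RPKM per gene and library, with a gene length column, in 1 table per stage. The authors' deposited comparison tables hold log2 fold changes of flox over null, p-values and a mean signal for genes they listed. Each deposited peak carries a score from the authors' caller. Table columns named WT and KO were read as flox and null. Every RPKM value gave a whole read count, within 0.01 reads, when multiplied by length and depth, where depth was recovered from the step that 1 read makes in the low values.

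From these values, log2(RPKM + 0.5) was compared with limma 3.58.1 in R 4.3.3 (limma-trend, Benjamini-Hochberg over all genes averaging 0.5 RPKM or more in the libraries fitted: 13643 at E9.5, 14100 at E10.5, 13886 for the interaction). Ratios were tested by exact permutation. P-values measure the spread between embryonic heart samples that the labels call biological replicates. The paralogs, gene lists and tests were chosen with earlier results of these data known. Named genes were the 6 paralogs, Chd4, the 3 genes most like each paralog, up to 4 called genes of smallest p per marker list, and contractile and SRF genes. Alternatives changed the pseudocount, filter, scaling, block, covariates and libraries. The sex covariate was whether Xist lay above Ddx3y in a library, and it was not balanced between genotypes. That was so in 2 of 5 null and 4 of 5 flox libraries at E9.5, and in 1 of 3 null and 2 of 3 flox libraries at E10.5. The 2 input libraries were not analysed here.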

Additional observations from a re-analysis of the deposited data

How the results depend on the processing

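At E10.5 the Tagln3 call held under all 18 alternatives (−1.87 to −1.57, adjusted p 0.00368 to 0.0409), and at E9.5 it ended only with the erythroid covariate. Tagln2 was never called at E10.5 when a library was left out (adjusted p 0.0793 to 0.229) and always at E9.5 (0.00432 to 0.0294). Some differences that did not pass turned sign and still did not pass. They were Cnn1 at E9.5 under 7 of 22 alternatives (up to 0.09), Tagln at E9.5 with the erythroid covariate (−0.12) and without flox library 2 (−0.02), and Cnn3 at E10.5 under 3 of 18 (up to 0.02). The cause was not tested. Counts of called genes moved more, though voom on recovered reads gave 2266, 335 and 720 at E9.5, E10.5 and in the interaction. At E9.5, 2342 genes became 3698 with the replicate block, 81 with the erythroid, 1238 with the sex and 419 with the neuronal covariate, the last added after seeing the data, and 1537 (without null library 5) to 2773 when 1 library was left out. At E10.5, 292 became 162 without a filter, 75, 61 and 79 with the erythroid, epicardial and sex covariates, and 62 to 356 when 1 library was left out (63, 92 and 62 without flox libraries 1, 2 and 3, 139 without null library 2). In the interaction, 531 became 797 with median scaling, 860 with quantile normalization, 1377 with the replicate block, 237 with the epicardial covariate, and 4 (without flox library 1 of E10.5) to 1795 (without null library 2 of E10.5) when 1 library was left out, with 13 of 16 omissions moving it by over 1.5 times. With the block, Cnn2 was called at E9.5 (−0.27, adjusted p = 0.0401), and no other paralog call changed. Deviations of same-numbered libraries correlated at −0.14 to 0.52 for E9.5 and −0.03 to 0.11 for E10.5. At E9.5, null libraries 1, 4 and 5 matched the flox library of their own number best (r of 0.45, 0.52 and 0.26). Null libraries 2 and 3 did not, and at E10.5 only null library 2 did. Whether the numbers pair the libraries was not tested. Leaving out 1 library, the E9.5 ratio differences ran from −0.54 to −0.32 (Tagln to Tagln2), −2.72 to −2.28 (Tagln3 to Tagln2) and −0.51 to −0.35 (Cnn2 to Cnn3), and all 3 passed without null library 1. Depth limits Tagln3 in null hearts most, at 27 to 70 reads.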
